A study of Homo sapiens with 12 samples.

Results

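Transcripts were followed of genes that encode death receptors, or that set what those receptors can do to caspase 8, namely TNFRSF10A, TNFRSF10B, TNFRSF10C, TNFRSF10D, FAS, TNFRSF1A, TNFRSF21, TNFRSF12A, CFLAR and CASP8. They were chosen by name and make up 10 of the 28278 gene symbols in the count table. The libraries came from motor neurons differentiated from WA09-Islet1-GFP, 1 wild-type human embryonic stem cell line in which GFP marks cells expressing the motor neuron transcription factor Islet1. Cultures received the organochlorine pesticide cis-chlordane in DMSO, or a matching volume of DMSO alone, for 16 hours and were then sorted on GFP. The 4 groups, with 3 libraries each, were control GFP-positive, treated GFP-positive, control GFP-negative and treated GFP-negative cells. Every culture shared the same 16 day differentiation and the short Rock inhibitor step after plating, and the GFP-negative cells are the other cells of the same dishes, not a defined cell type. Each replicate was an independent thaw of cells that had been frozen after differentiation.

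Death receptors belong to the TNF receptor superfamily and carry a death domain in their cytoplasmic tail. When a ligand binds FAS, TNFRSF10A or TNFRSF10B, the adaptor FADD brings caspase 8 to the receptor, where caspase 8 activates itself and starts apoptosis. CFLAR (cFLIP), a relative of caspase 8 with no protease activity of its own, competes for that place. The ligand TRAIL has a pair of death receptors, TNFRSF10A (DR4) and TNFRSF10B (DR5), and a pair of decoys, TNFRSF10C and TNFRSF10D, that bind it without passing on a full death signal. TNFRSF10B is a known target of DDIT3 (CHOP), a transcription factor of the unfolded protein response.

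RefSeq promoter windows, from 250 bases before to 50 bases after a transcript start, were at hand for 5 of the 10 genes (12 windows, GRCh38.p14). These were CASP8, CFLAR, FAS, TNFRSF1A and TNFRSF21. No window of TNFRSF10B, of the other TRAIL receptors or of TNFRSF12A was searched. The 250 bases before the start are shown for TNFRSF1A (chr12:6342077-6342326, minus strand), a receptor whose transcript rose with treatment, and for TNFRSF21 (chr6:47309906-47310155, minus strand), a receptor whose transcript did not pass the test. Each is written 5′ to 3′ in the direction of the gene, and capitals mark a CCAAT box, here read on the opposite strand as ATTGG.
TNFRSF1A: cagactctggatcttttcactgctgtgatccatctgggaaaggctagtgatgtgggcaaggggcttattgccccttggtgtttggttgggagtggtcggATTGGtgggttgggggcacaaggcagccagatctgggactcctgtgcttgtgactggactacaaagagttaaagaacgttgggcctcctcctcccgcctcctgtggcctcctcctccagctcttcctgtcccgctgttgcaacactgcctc
TNFRSF21: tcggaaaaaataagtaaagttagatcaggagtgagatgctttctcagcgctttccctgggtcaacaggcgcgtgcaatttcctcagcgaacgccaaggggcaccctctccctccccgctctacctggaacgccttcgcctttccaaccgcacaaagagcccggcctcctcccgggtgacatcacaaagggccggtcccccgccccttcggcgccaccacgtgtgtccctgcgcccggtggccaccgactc
Both strands of every window were searched for 4 motifs. The C/EBP-ATF element TGATGNAA and the cAMP response element TGACGTCA were in 0 of the 12 windows, against 3.62% and 1.85% of all 35116 windows. The AP-1 site TGANTCA was in 4 of the 12, in windows of CASP8, CFLAR and FAS, against 7.71% of all windows. CCAAT was in 2, of CASP8 and TNFRSF1A, against 34.6%. These are matches of letters in a short window and were not tested for function.

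Libraries held between 23414935 and 38347050 counts. Levels are given as CPM, which are counts scaled to the size of the library, here with TMM factors over the 12 libraries, and group values are means ± SD with n = 3. ISL1 was at 65.9 ± 3.18 CPM in control GFP-positive and 2.56 ± 0.189 CPM in control GFP-negative cells, and the summed level of 10 motor neuron markers was 2327 to 2909 CPM against 424 to 461 CPM. Treated cells had less of both, with ISL1 at 12.0 ± 3.72 CPM and the markers at 772 to 1145 CPM in GFP-positive cells. The GFP-negative libraries had higher summed levels of the markers of neural progenitors, cycling, astrocyte, mesenchymal, epithelial and endothelial cells, though not of every single marker.

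A single library stood apart. Control GFP-negative replicate 3 had 6433 summed CPM of 12 blood cell genes, chosen after the data were seen, against 2.73 to 6.93 CPM in the other 5 control libraries. It had 3486 CPM of the haemoglobin gene HBB and 142 CPM of CSF3R, a receptor of neutrophils. Treated GFP-negative replicates 1 and 3 had 247 and 217 CPM, and treated GFP-positive replicate 1 had 29.0 CPM, while the other treated libraries were below 0.5 CPM. Values of the 10 genes that rest on control GFP-negative replicate 3 are therefore given with and without it. The part of the blood cell transcripts in each result was not tested.

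**Figure D1:**
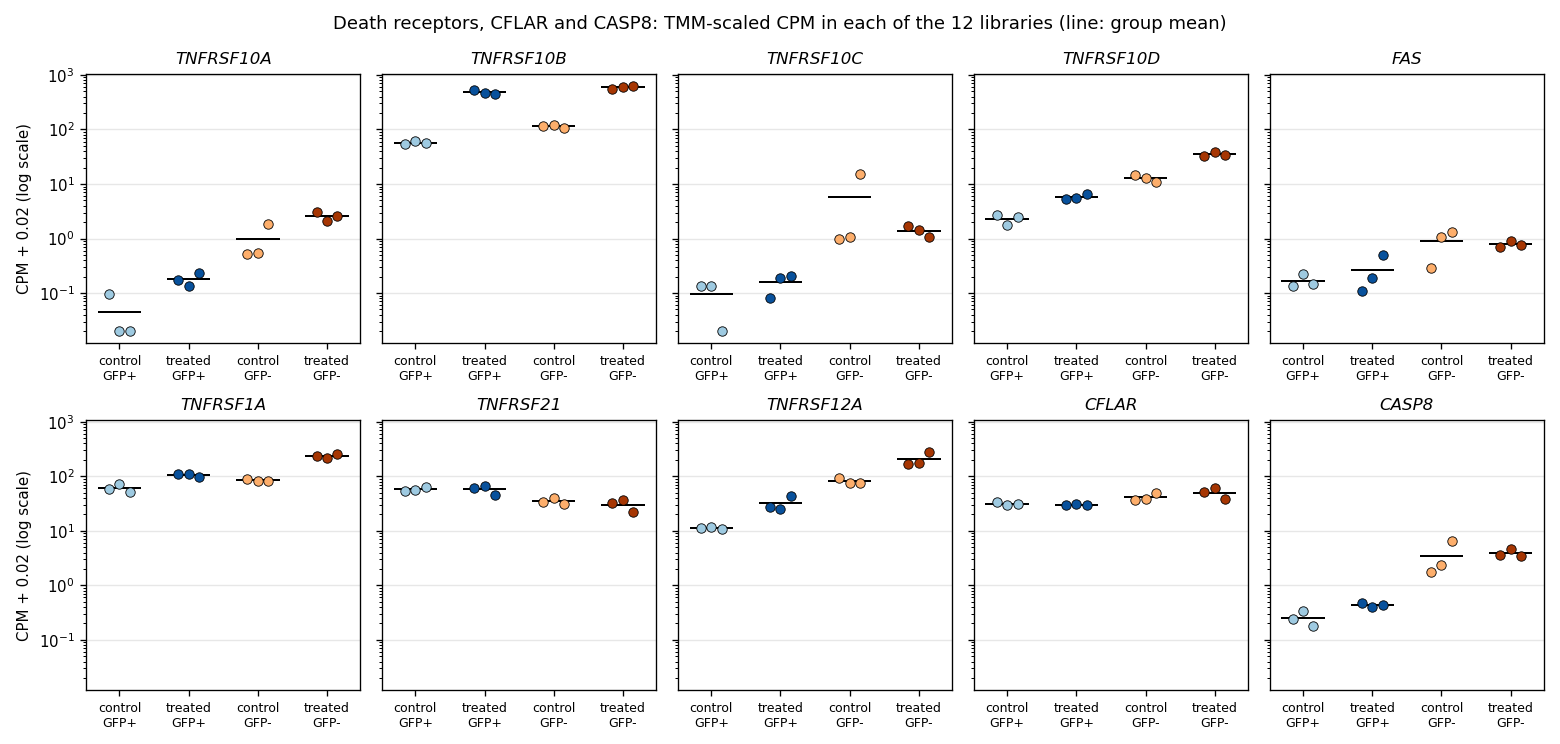
Each panel plots 1 gene, with the 4 groups on the x axis and CPM + 0.02 on a logarithmic y axis; points are the 12 libraries and lines are group means. TNFRSF10B was at 54.8 to 61.4 CPM in control and 450 to 535 CPM in treated GFP-positive cells, while CFLAR stayed between 29.1 and 34.2 CPM in those 6 libraries.

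The first comparison asked how the sorted motor neurons responded to cis-chlordane. TNFRSF10B, the TRAIL death receptor DR5, rose most among the 7 genes that could be tested, followed by TNFRSF12A, the receptor of the ligand TWEAK, and by the decoy TNFRSF10D. TNFRSF1A, the main receptor of TNF, rose by less than 2-fold. CFLAR and TNFRSF21 did not pass the test, and TNFRSF10A, TNFRSF10C and FAS were too low to be tested. Of the 7 genes tested, 3 were called higher (fold change of 2 or more, adjusted p below 0.05) and 0 lower, against 12.8% called higher and 11.2% called lower of the 15333 genes tested. Since the filter on low counts decides which genes are tested, these 7 are not all 10 members, and CASP8 passed it only through the treated libraries. The treated libraries were all above the controls for 5 of the 7, where 26.7% of all genes tested were higher and 30.8% lower without overlap.

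TNFRSF10B was at 54.8, 61.4 and 56.7 CPM in the control GFP-positive libraries and at 535, 477 and 450 CPM in the treated ones. The groups were far apart, and the lowest treated library was above every control. The log2 fold change was 3.15 (SE 0.17, 95% interval 2.81 to 3.49, adjusted p = 3.2e-17, edgeR quasi-likelihood test). TNFRSF10B overlaps RHOBTB2 on the opposite strand, and the mean of RHOBTB2 was 169 CPM in control and 75.2 CPM in treated cells.

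TNFRSF10A, the other TRAIL death receptor, had 2, 0 and 0 counts in the control and 5, 4 and 8 counts in the treated GFP-positive libraries. The control group lay within the limit of 3 counts per library, so the treated mean of 0.159 ± 0.0484 CPM was at least 1.61-fold higher, with counting error only in view and no test. Of the decoys, TNFRSF10D was at 2.65, 1.71 and 2.44 CPM in the controls and 5.32, 5.46 and 6.61 CPM in the treated libraries. These ranges did not overlap, and the log2 fold change was 1.43 (SE 0.27, adjusted p = 4.0e-05). TNFRSF10C had 3, 4 and 0 counts in the controls and 2, 6 and 7 counts in the treated libraries, and the ranges overlapped.

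TNFRSF12A (Fn14), which has no death domain and signals through TRAF proteins, was at 11.4, 11.9 and 10.9 CPM in the controls and 27.4, 25.3 and 42.6 CPM in the treated libraries. Treated replicate 3 was the highest, and all 3 treated libraries were above the controls, with a log2 fold change of 1.55 (SE 0.21, adjusted p = 1.1e-07). TNFRSF1A was at 57.8, 71.8 and 50.5 CPM in the controls and 112, 111 and 95.9 CPM in the treated libraries. Its log2 fold change was 0.90 (SE 0.17, adjusted p = 3.6e-05), under the fold change of 2, and it passed that fold without control GFP-positive replicate 2 (1.04), the highest control, and in 3 other settings with up to 1.11.

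TNFRSF21 (DR6), a death receptor known for its part in axon pruning, was at 53.1, 56.5 and 64.1 CPM in the controls and 60.4, 66.8 and 45.3 CPM in the treated libraries. The ranges overlapped, and the log2 fold change was 0.06 (95% interval -0.29 to 0.41, adjusted p = 0.79), with a sign that changed in a fit of all 12 libraries. FAS, the receptor of Fas ligand, had 3, 7 and 4 counts in the controls and 3, 6 and 18 counts in the treated GFP-positive libraries. It was near the limit of detection in all 6, at a mean of 0.148 CPM in control and 0.245 CPM in treated cells.

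CFLAR was at 34.2, 29.1 and 31.2 CPM in the controls and 29.9, 30.6 and 30.2 CPM in the treated GFP-positive libraries. The treated values fell inside the control range, and the log2 fold change was 0.01 (95% interval -0.35 to 0.37, adjusted p = 0.97), with a sign that changed under other scalings. CASP8 was at 0.224, 0.320 and 0.161 CPM in the controls and 0.450, 0.373 and 0.421 CPM in the treated libraries, which is 5 to 11 against 13 to 16 counts. The ranges did not overlap, but the log2 fold change of 0.87 (SE 0.54, adjusted p = 0.18) did not pass the test. Over the 7 genes tested the median log2 fold change was 0.90, beside 0.03 over all genes tested.

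**Figure D2:**
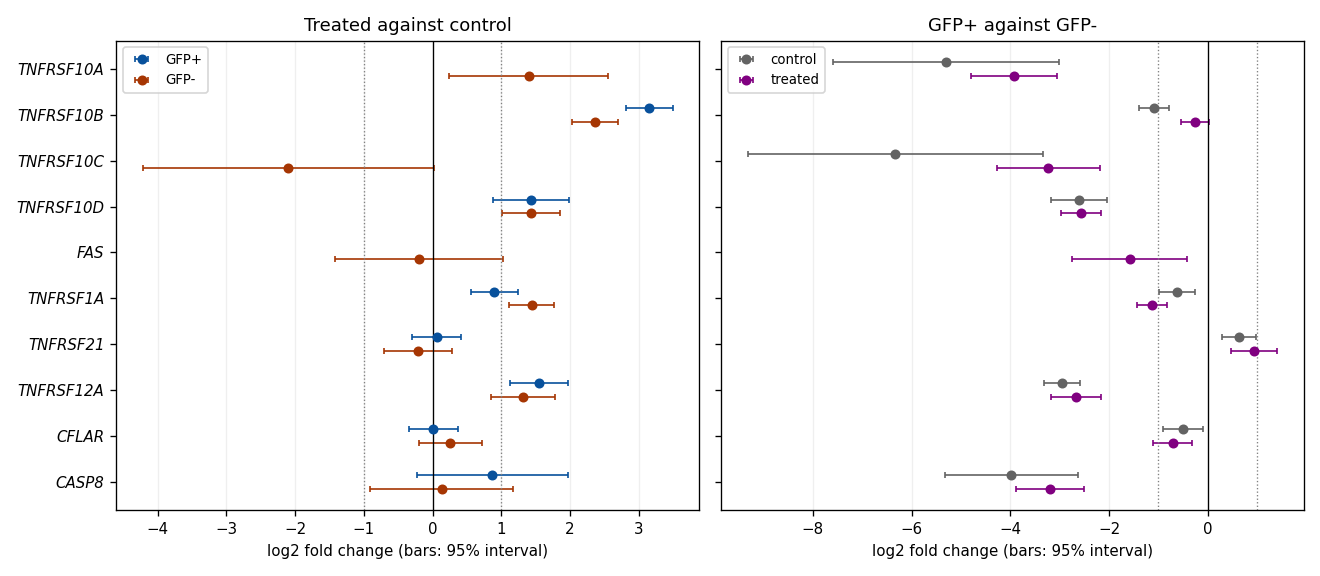
Points are edgeR log2 fold changes and bars their 95% intervals, for treated against control in each sort fraction (left) and for GFP-positive against GFP-negative cells in each treatment (right); dotted lines mark a fold change of 2, and genes not tested have no point. TNFRSF10B was at 3.15 in GFP-positive and 2.36 in GFP-negative cells, and the intervals of CFLAR and TNFRSF21 covered 0 in both fractions.

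The same comparison was made in the GFP-negative cells of the cultures. The receptors that rose were TNFRSF10B, TNFRSF1A, TNFRSF10D and TNFRSF12A. All 10 genes were tested, and 4 were called higher and 0 lower, against 8.59% called higher and 9.75% called lower of 15513 genes. For 5 of the 10 the treated libraries were all above the controls, against 24.2% of all genes tested higher and 22.4% lower without overlap. The median log2 fold change of the 10 was 0.79, beside -0.01 over all genes tested.

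TNFRSF10B was at 116, 120 and 105 CPM in control and 559, 595 and 631 CPM in treated GFP-negative cells. The groups were again far apart, with a log2 fold change of 2.36 (SE 0.15, 95% interval 2.03 to 2.70, adjusted p = 1.3e-05). RHOBTB2 on the opposite strand was at 149 CPM in control and 53.6 CPM in treated cells. TNFRSF1A was at 89.9, 83.7 and 82.9 CPM in controls and 239, 216 and 255 CPM in treated cells. No library overlapped, and the log2 fold change was 1.44 (SE 0.15, adjusted p = 1.3e-04), past the fold change of 2 that the GFP-positive cells did not reach.

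TNFRSF10D was at 14.6, 13.1 and 10.7 CPM in controls and 32.8, 38.1 and 34.2 CPM in treated GFP-negative cells. All treated libraries lay above the controls, with a log2 fold change of 1.43 (SE 0.19, adjusted p = 5.4e-04). TNFRSF12A was at 94.3, 76.3 and 73.8 CPM in controls and 169, 177 and 274 CPM in treated cells. Treated replicate 3 was again the highest, and the log2 fold change was 1.32 (SE 0.21, adjusted p = 0.0014).

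The less abundant genes turned on the library with blood genes. TNFRSF10A was at 0.493, 0.529 and 1.86 CPM in control and 3.01, 2.08 and 2.55 CPM in treated GFP-negative cells. The ranges did not overlap, but control replicate 3 lay close to the treated libraries, and the log2 fold change was 1.40 (SE 0.52, adjusted p = 0.066) with it and 2.28 (adjusted p = 0.0014) without it. Treated GFP-negative replicate 2, which had 0.474 CPM of the blood genes, was at 2.08 CPM.

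TNFRSF10C was at 0.953, 1.03 and 15.5 CPM in control and 1.68, 1.38 and 1.06 CPM in treated GFP-negative cells. Control replicate 3, with 391 counts against 29 and 35 in the other 2, set the control mean of 5.82 ± 8.36 CPM. The log2 fold change was -2.10 (SE 0.95, adjusted p = 0.12), 0.45 (adjusted p = 0.43) without replicate 3, and -2.60 (adjusted p = 0.032) without control GFP-negative replicate 1. TNFRSF10C is known as a receptor of neutrophils, and FCGR3B, another neutrophil gene, was at 58.0 CPM in that library.

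CASP8 was at 1.71, 2.32 and 6.41 CPM in control and 3.61, 4.55 and 3.44 CPM in treated GFP-negative cells. Control replicate 3 was the highest of all 12 libraries. The log2 fold change was 0.13 (SE 0.46, adjusted p = 0.85), turned to -0.19 without control GFP-negative replicate 1 and to -0.09 without control GFP-negative replicate 2, and was 0.92 (adjusted p = 0.044) without replicate 3, then under a fold change of 2. FAS was at 0.263, 1.06 and 1.31 CPM in control and 0.688, 0.874 and 0.745 CPM in treated cells. These ranges overlapped, with a log2 fold change of -0.20 (SE 0.55, adjusted p = 0.81) that turned to 0.19 without control replicate 3.

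CFLAR was at 37.0, 37.6 and 48.9 CPM in control and 51.4, 59.8 and 39.0 CPM in treated GFP-negative cells, and TNFRSF21 was at 33.4, 39.4 and 31.0 CPM and then 32.8, 36.5 and 21.7 CPM. The ranges of both overlapped. The log2 fold change was 0.26 for CFLAR (95% interval -0.20 to 0.72, adjusted p = 0.37) and -0.21 for TNFRSF21 (95% interval -0.71 to 0.28, adjusted p = 0.50).

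**Figure D3:**
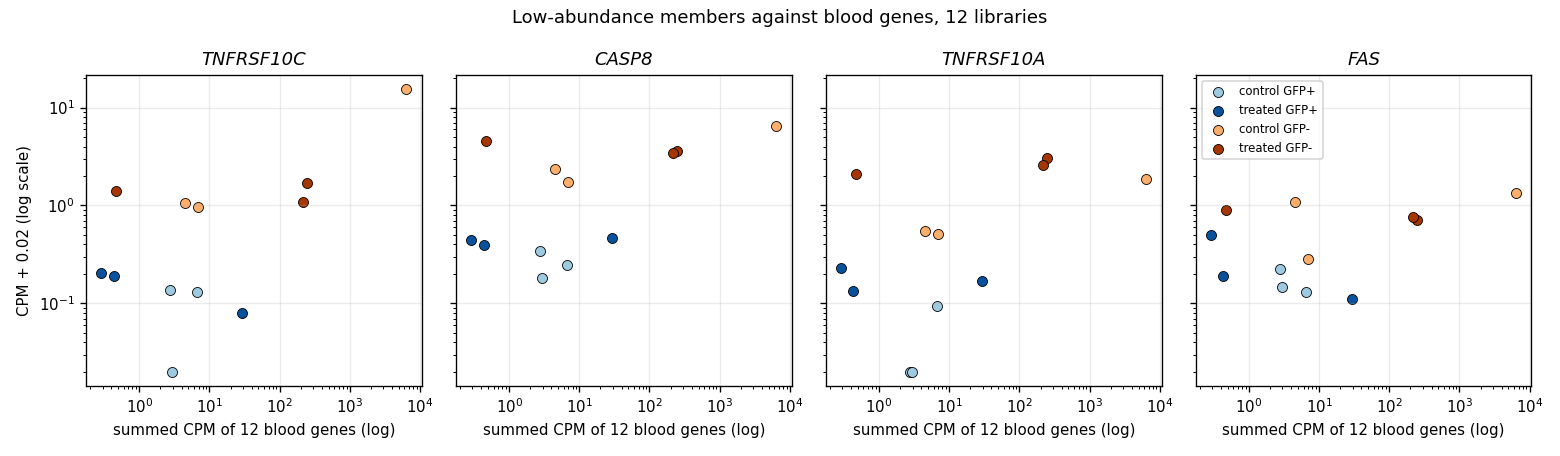
Each panel plots 1 gene as CPM + 0.02 against the summed CPM of 12 blood genes, both on logarithmic axes, with 1 point per library and colours for the 4 groups. Control GFP-negative replicate 3, at 6433 summed CPM, had the highest TNFRSF10C (15.5 CPM), CASP8 (6.41 CPM) and FAS (1.31 CPM) of the 12 libraries.

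Whether the response differed between the sort fractions was tested by the interaction of treatment and fraction. In the main edgeR fit, which did not pair the fractions, none of the 10 genes passed an adjusted p of 0.05. Of all 16226 genes, 2.19% were called. An unadjusted p under 0.05 was seen for 2 of the 10, against 16.6% of all genes tested. DESeq2 called 1 of the 10, and of all 16226 genes it called 411 higher and 378 lower. The 2 with an unadjusted p under 0.05 were TNFRSF10B and TNFRSF1A, in opposite directions. The log2 fold change of TNFRSF10B was larger in GFP-positive cells by 0.70 (SE 0.18, edgeR adjusted p = 0.056). Libraries of both fractions with the same treatment and replicate number deviated together, and with the culture as a replicate block the difference of 0.70 had an adjusted p of 0.026, in a fit that called 519 genes higher and 745 lower. It was 0.91 (adjusted p = 0.027) without treated GFP-positive replicate 3, and adjusted p ranged from 0.0012 to 0.16 over all alternatives. The log2 fold change of TNFRSF1A was smaller in GFP-positive cells, with a difference of -0.64 (SE 0.21, adjusted p = 0.14). For TNFRSF10D the difference was -0.09 (SE 0.28, adjusted p = 0.92), with a sign that changed under other settings, and for TNFRSF12A it was 0.14 (adjusted p = 0.86). The remaining 6 differences had adjusted p between 0.37 and 0.80.

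The sort itself was compared next, first in control cultures. Most of the 10 genes were lower in the GFP-positive cells, with TNFRSF12A and TNFRSF10D among those called, and TNFRSF21 stood on the other side with a higher level in GFP-positive cells. In sorted bulk samples, fewer expressing cells and less RNA per cell cannot be told apart. Of the 9 genes tested, 6 were called lower and 0 higher, against 15.3% called lower and 7.47% called higher of 15404 genes. TNFRSF10A, TNFRSF10C and CASP8 passed the filter only through the GFP-negative libraries, and all of them are among the 6 called. Their calls and p-values were therefore not independent of the filter. The ranges of the 2 fractions did not overlap for any of the 10 genes, with 9 lower and 1 higher in GFP-positive cells. Of the 9 tested, 8 were lower and 1 higher, where 23.8% of all genes tested were lower and 29.5% higher without overlap.

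TNFRSF12A was at 11.4 ± 0.492 CPM in GFP-positive and 81.4 ± 11.2 CPM in GFP-negative control cells, a log2 fold change of -2.95 (SE 0.16, adjusted p = 1.2e-06). TNFRSF10D was lower by -2.61 (SE 0.25, adjusted p = 3.1e-05) and TNFRSF10B by -1.09 (SE 0.13, adjusted p = 1.4e-04). TNFRSF10B lost the call in the fit of all 12 libraries (-0.99) and with glmTreat against a fold of 2 (adjusted p = 0.51). CASP8 had 5 to 11 counts in the GFP-positive and 52 to 162 counts in the GFP-negative libraries. Its log2 fold change was -3.98 (SE 0.61, adjusted p = 5.7e-04), and -3.16 (adjusted p = 2.4e-05) without control GFP-negative replicate 3. TNFRSF10C was lower by -6.33 (SE 1.35, adjusted p = 0.0041), and by -3.73 (adjusted p = 2.2e-04) without that library. TNFRSF10A was at least 9.76-fold lower in GFP-positive cells, and at least 5.19-fold lower without it.

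TNFRSF1A, CFLAR and TNFRSF21 differed by less than 2-fold between the control fractions. TNFRSF1A was lower in GFP-positive cells by -0.62 (SE 0.16, adjusted p = 0.011) and CFLAR by -0.50 (SE 0.18, adjusted p = 0.048), and CFLAR no longer passed without control GFP-negative replicate 3 (-0.33, adjusted p = 0.17). TNFRSF21 was higher in GFP-positive cells by 0.63 (SE 0.16, adjusted p = 0.0093). FAS was not tested, with 3, 7 and 4 counts in GFP-positive and 8, 36 and 33 counts in GFP-negative libraries.

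In treated cultures all 10 genes were tested between the fractions, and 7 were called lower and 0 higher in GFP-positive cells, against 13.7% called lower and 10% called higher of 15416 genes. Without overlap, 9 of the 10 were lower and 1 higher, against 29.6% and 28.1% of all genes tested. TNFRSF10A and TNFRSF10C passed the filter only through the GFP-negative libraries, and FAS reached the count minimum in 1 GFP-positive library. All of them are among the 7 called, and these calls were not independent of the filter. With library size alone as the scaling, 6 were called lower and 1, TNFRSF21, higher, and the share of higher among all genes called went from 42.1% to 55.8%. TNFRSF10B was not among the 7. Its level of 487 ± 43.6 CPM in GFP-positive and 595 ± 36.3 CPM in GFP-negative treated cells gave a log2 fold change of -0.26 (95% interval -0.55 to 0.02, adjusted p = 0.12).

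TNFRSF10A (-3.93, SE 0.40, adjusted p = 7.6e-06), TNFRSF10C (-3.23, SE 0.48, adjusted p = 1.6e-04) and CASP8 (-3.19, SE 0.32, adjusted p = 6.3e-06) had the lowest log2 fold changes of treated GFP-positive against treated GFP-negative cells. TNFRSF12A followed with -2.67 (SE 0.24) and TNFRSF10D with -2.57 (SE 0.19). TNFRSF1A, which was within 2-fold in controls, was lower by -1.13 (SE 0.14, adjusted p = 3.3e-05), and lost the call with library size alone (-0.96) and with glmTreat (adjusted p = 0.38). FAS was lower by -1.58 (SE 0.54, adjusted p = 0.027) and lost the call when treated GFP-positive replicate 1 (-1.23, adjusted p = 0.10) or 2 (-1.41, adjusted p = 0.094), or treated GFP-negative replicate 1 (-1.65, adjusted p = 0.054) or 2 (-1.47, adjusted p = 0.073) was left out. TNFRSF21 was higher in GFP-positive cells by 0.94 (SE 0.22, adjusted p = 0.0034) and reached 2-fold without treated GFP-negative replicate 1 (1.00) or 2 (1.11) or treated GFP-positive replicate 3 (1.06).

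Markers of other cells moved with these differences. Of 10 cycling markers, 10 were called lower in GFP-positive than in GFP-negative control cells, with sums of 141 to 194 CPM against 1213 to 1351 CPM. Of 9 neural progenitor markers tested, out of 10, 8 were called lower, with sums of 2908 to 3267 CPM against 6037 to 8176 CPM. Epithelial markers (5 of 6 tested, out of 7, called lower) summed to 166 to 219 CPM against 705 to 989 CPM, mesenchymal markers (5 of 7 tested, out of 10) to 272 to 344 CPM against 794 to 940 CPM, and endothelial markers (4 of 4 tested, out of 6) to 5.00 to 5.23 CPM against 24.5 to 37.2 CPM. Of all genes tested between the control fractions, 15.3% were called lower. LUM and TWIST1 among the mesenchymal calls and TEK among the endothelial ones had at most 6, 5 and 10 counts in control GFP-positive libraries. Like those of the low members above, these calls were not independent of the filter. Astrocyte markers (3 of 4 tested, out of 8, called lower) summed to 28.7 to 46.8 CPM against 115 to 162 CPM. The other tested marker, SLC1A2, went the opposite way, at 19.4 CPM in GFP-positive and 10.5 CPM in GFP-negative control cells (0.76, edgeR adjusted p = 0.046). Between the treated fractions it was called higher in GFP-positive cells (1.09, edgeR adjusted p = 2.8e-04). With treatment, cycling markers fell in GFP-negative cells to 379 to 480 CPM (10 of 10 called lower), and endothelial markers summed to 88.9 to 131 CPM (1 called higher, 2 lower of 5 tested). In GFP-positive cells treatment came with fewer cycling transcripts (83.8 to 98.8 CPM, 3 of 10 called lower) and mesenchymal transcripts (63.0 to 99.7 CPM, 3 of 4 tested called lower). The 8 microglia and macrophage markers summed to 1.83 to 3.58 CPM in control and 14.8 to 20.6 CPM in treated GFP-positive cells. The 2 tested were both called higher, CD68 (1.93 to 14.0 CPM) and CD14 (0.518 to 2.26 CPM). In treated GFP-positive cells CX3CR1 was at 0.237 CPM, and PTPRC, CSF1R, ITGAM and TYROBP were at 0.0701 CPM or less. The defining marker AIF1 was at 0 in every library. The part of these cells in the levels of the 10 genes was not tested.

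To compare genes with each other, CPM was divided by the length of the Ensembl canonical transcript in kilobases. In control GFP-positive cells TNFRSF1A was highest at 27.6 CPM per kb, followed by TNFRSF21 (16.1), TNFRSF10B (14.4) and TNFRSF12A (11.7), of which TNFRSF21 and TNFRSF10B overlapped over the libraries. CFLAR was at 2.16 CPM per kb, a level that depends on a long canonical transcript of 14612 bases, and TNFRSF10D, CASP8, TNFRSF10C, FAS and TNFRSF10A were below 1 CPM per kb. After treatment TNFRSF10B led in these cells with 122 CPM per kb, ahead of TNFRSF1A at 49.0 and TNFRSF12A at 32.5. In GFP-negative cells TNFRSF12A was highest in both conditions, at 83.3 CPM per kb in control and 212 CPM per kb in treated cells, where TNFRSF10B followed with 149 CPM per kb.

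TNFRSF10B made up most of the TRAIL receptor transcripts, counted as summed CPM per kb of the 4 TRAIL receptors. Its share was 95.3% in control and 98.5% in treated GFP-positive cells. In GFP-negative cells it was 78.6% in controls, 86.0% without control replicate 3, and 92.6% after treatment. The decoys TNFRSF10C and TNFRSF10D together made up 4.64% ± 1.06 in control and 1.42% ± 0.304 in treated GFP-positive cells, without overlap of the libraries. In GFP-negative cells their share was 20.4% ± 12.0 in controls, 13.5% without control replicate 3, and 6.79% ± 0.576 after treatment. The summed level of the 4 receptors went from 15.1 ± 0.709 to 124 ± 10.7 CPM per kb in GFP-positive and from 36.6 ± 4.01 to 161 ± 9.0 CPM per kb in GFP-negative cells.

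The balance between receptor, inhibitor and caspase transcripts was described the same way. The level of TNFRSF10B relative to CFLAR was 6.74 ± 0.920 in control and 59.0 ± 5.77 in treated GFP-positive cells, and 10.3 ± 2.12 and 45.1 ± 12.3 in GFP-negative cells. No treated library overlapped a control library. The level of CFLAR relative to CASP8 was 26.6 ± 9.41 in control and 13.3 ± 1.44 in treated GFP-positive cells, resting on the few counts of CASP8. In GFP-negative cells it was 2.76 ± 1.29 in control cells, 3.44 without control replicate 3, and 2.35 ± 0.263 after treatment. These ratios are descriptions of levels already given and carry no test.

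**Figure D4:**
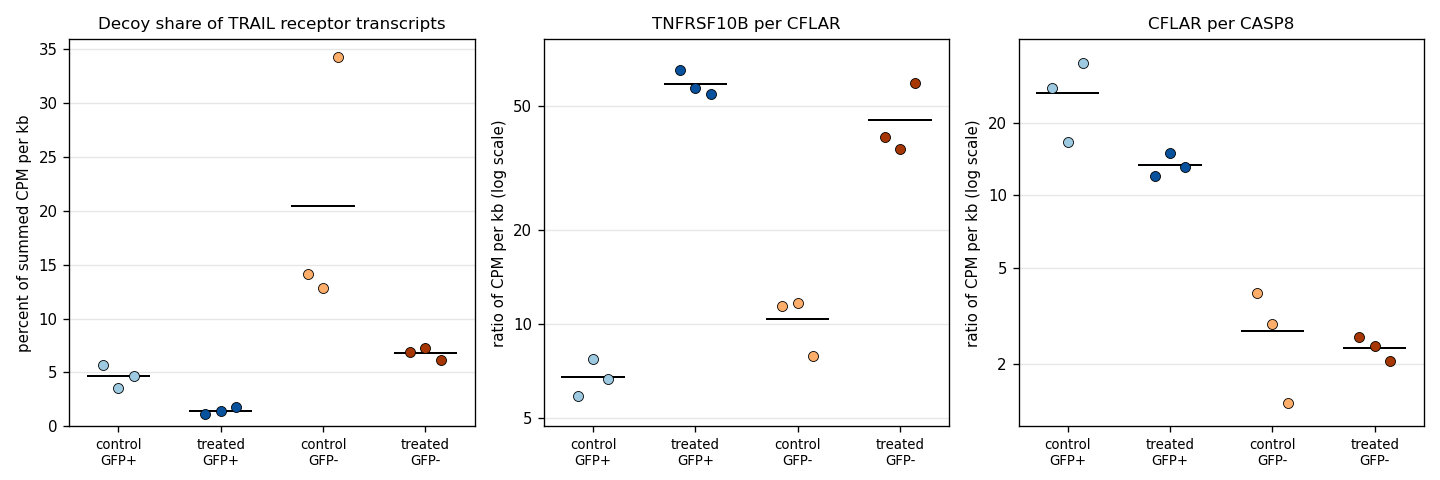
Points are libraries and lines are group means for the share of decoys in the summed CPM per kb of the TRAIL receptors (percent, linear axis), the ratio of TNFRSF10B to CFLAR and the ratio of CFLAR to CASP8 (both on logarithmic axes, in CPM per kb). The decoy share was 3.57% to 5.70% in control and 1.14% to 1.75% in treated GFP-positive cells, and the highest control GFP-negative point, at 34.3%, is replicate 3.

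The other genes of the pathway were counted by their roles, over lists chosen with earlier results of these data known. Their counts are to be read against the shares of all genes tested, which were 12.8% called higher and 11.2% called lower with treatment in GFP-positive cells, and 8.59% and 9.75% in GFP-negative cells. None of the 6 death ligands reached the count minimum in the treatment comparison of GFP-positive cells. FASLG and TNF had 0 counts in all 6 GFP-positive libraries, which allows up to 3 counts each. TNFSF10, which encodes TRAIL, had at most 2 counts in control and 4 counts in treated GFP-positive libraries, and its highest count, 83, was in control GFP-negative replicate 3, where FASLG had its 7 counts. TNFSF12 (TWEAK) was at 0.270 CPM in control and 0.107 CPM in treated GFP-positive cells. In GFP-negative cells 2 ligands were tested. TNFSF15, which passed the filter only through the treated libraries, had at most 2 counts in control and 17 counts in treated libraries.

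Of 8 other receptors of the superfamily, 5 were tested in GFP-positive cells, with 1 called higher and 1 lower, too few to set against the background. EDA2R, a receptor of ectodysplasin A2, rose from 1.93 ± 0.401 to 28.2 ± 5.98 CPM (log2 fold change 3.95, adjusted p = 1.1e-15). NGFR, the p75 neurotrophin receptor, which has a death domain, fell from 1104 ± 133 to 299.8 ± 56.1 CPM (-1.81, adjusted p = 4.8e-11). In GFP-negative cells 1 was called higher and 2 lower. Among the 2 lower was TNFRSF1B (-2.91, edgeR adjusted p = 0.017). It was at 4.01, 5.35 and 32.6 CPM in control and 2.54, 2.08 and 1.06 CPM in treated GFP-negative libraries. The highest was control replicate 3, the library with blood genes, and no fold change without it is given.

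Of 16 adaptors and complex members, 16 were tested and 2 were called higher in GFP-positive cells, and 1 was called higher in GFP-negative cells, shares near those of all genes. They were TRAF5, an adaptor of TNF receptors, from 1.98 to 9.79 CPM (2.38, adjusted p = 4.0e-09), and RBCK1, a subunit of the linear ubiquitin ligase, from 75.5 to 146.9 CPM (1.03, adjusted p = 4.6e-06). FADD, which joins receptor and caspase 8, was at 34.6 ± 3.62 CPM in control and 32.6 ± 8.77 CPM in treated GFP-positive cells (-0.01, adjusted p = 0.96). CASP10, the closest relative of caspase 8 with protease activity, was not tested, at 0.140 CPM in control and 0.126 CPM in treated GFP-positive cells.

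Downstream of caspase 8, 12 genes were tested in GFP-positive cells, with 3 called higher and 1 lower. Their median log2 fold change was -0.16, beside 0.03 over all genes tested. Among those called higher was CYCS, the gene of cytochrome c, which passes the death signal on from mitochondria. It rose from 87.1 to 232 CPM (1.49, adjusted p = 2.7e-09). The gene called lower was BID, from 18.2 to 6.88 CPM (-1.33, edgeR adjusted p = 3.5e-06). Of 13 genes tested from the list of inhibitors, 2 were called higher and 1 lower in GFP-positive cells, also near the shares of all genes. BIRC5 (survivin), which is also a gene of dividing cells, fell (-1.40, adjusted p = 2.7e-07). DEDD2 (1.14, adjusted p = 5.1e-06) and TNFAIP3 (1.10, adjusted p = 9.8e-04), a brake on NF-kB, rose. DEDD2 is itself a death effector domain protein, and its place on the list does not make it a brake on the pathway. In GFP-negative cells 3 were called higher, DEDD2 among them, and 1 lower. Of the 3 necroptosis genes, 0 were tested in GFP-positive cells.

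A further list held known regulators of TNFRSF10B and other genes of the same stress response. All 10 genes of the integrated stress response list were called higher in GFP-positive cells, and 9 of 10 in GFP-negative cells, with median log2 fold changes of 2.86 and 3.08. Among them ATF3 rose by 4.54 (adjusted p = 4.5e-20), DDIT3 by 3.62 (17.1 to 199.9 CPM, adjusted p = 1.7e-16) and CEBPB by 3.49 (adjusted p = 1.7e-16) in GFP-positive cells, and ATF4 was at 400 CPM in control and 1395 CPM in treated libraries.

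Of 13 NF-kB targets, 11 were tested, with 4 called higher and 2 lower in GFP-positive cells and 3 higher and 0 lower in GFP-negative cells. IRF1 rose by 3.68 (1.80 to 21.8 CPM, adjusted p = 1.4e-14), ICAM1 by 2.94 (adjusted p = 9.3e-08) and NFKB2 by 2.15 (adjusted p = 3.6e-09) in GFP-positive cells. The 2 called lower, named after their values were seen, were TNFAIP2 (7.35 to 3.49 CPM, adjusted p = 0.0012) and CCL2 (-1.73, adjusted p = 0.030), the latter below 1 CPM in both groups.

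The genes most like TNFRSF10B over the 12 libraries, by Pearson correlation of log2 CPM among 13810 genes, were SLC7A3 (r = 0.995), an amino acid transporter, MFSD2A (r = 0.992), a lipid transporter, and ATF5 (r = 0.991), a stress transcription factor. SLC7A3 was at 4.90 CPM in control and 114 CPM in treated GFP-positive cells, and at 13.6 and 221 CPM in GFP-negative cells. For CASP8 they were KIAA0040 (r = 0.977), GLIS3 (r = 0.976) and TMC6 (r = 0.975), all higher in GFP-negative than in GFP-positive cells. For FAS, which rests on few counts, they included PLEKHF2 (r = 0.938) and TOR4A (r = 0.925). The 12 libraries share 4 groups, so these values are descriptions and carry no p.

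In the genome (hg38, GENCODE 44) the 4 TRAIL receptor genes lie side by side on chromosome 8, as TNFRSF10B (23020133 to 23069031, minus strand), TNFRSF10C (23102921 to 23117445, plus strand), TNFRSF10D (23135588 to 23164027, minus strand) and TNFRSF10A (23190452 to 23225102, minus strand). They moved by different amounts, with log2 fold changes of 3.15 for TNFRSF10B and 1.43 for TNFRSF10D in GFP-positive cells. CFLAR (201116154 to 201176687) and CASP8 (201233443 to 201361836) both lie on the plus strand of chromosome 2. FAS lies on chromosome 10 (88953813 to 89029605, plus strand), TNFRSF1A on chromosome 12 (6328757 to 6342114, minus strand), TNFRSF21 on chromosome 6 (47231532 to 47309905, minus strand) and TNFRSF12A on chromosome 16 (3018445 to 3022383, plus strand). Besides RHOBTB2 at TNFRSF10B, genes of the table overlap FAS (ACTA2 on the opposite and STAMBPL1 on the same strand), TNFRSF12A (CLDN6), CFLAR (CFLAR-AS1) and CASP8 (FLACC1) on the opposite strand. The strand setting of the counting is not given in the sources used here, so reads of such pairs may not be told apart. FLACC1 was at 0.238 CPM in control and 1.15 CPM in treated GFP-positive cells, beside 0.235 and 0.415 CPM of CASP8.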

How the data were processed

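Motor neuron cultures of the WA09-Islet1-GFP line gave 12 libraries, 3 in each of 4 groups (cis-chlordane or DMSO, 16 hours, GFP-positive or GFP-negative). The labels give the dose as 10 µM and the methods of the study as 16 µM. Since the word untreated opens the titles of all libraries, the treatment entry was used to group them. Per the sources, the authors made stranded mRNA libraries, joined lanes, checked reads with FASTQC and mapped them with HISAT2 to hg38 and the Ensembl 103 annotation; the submitters' processing notes name featureCounts, and its options are not given in the sources used here. The deposited values are raw counts per gene, and 0 per-sample columns were left unused. P-values measure the spread between independent thaws.

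Counts were tested with edgeR 4.0.16 in R 4.3.3 (TMM scaling, filterByExpr with a minimum count of 10 and total of 15, quasi-likelihood F-test, Benjamini-Hochberg adjustment over all genes tested). A call required a fold change of 2 or more with an adjusted p below 0.05, and for the interaction only the latter. The smallest p of an exact permutation test of 3 against 3 is 0.1, and none was run. Overlap of ranges was judged on CPM for the members and on log2 CPM with a prior count of 2 for all genes. Groups with at most 3 counts in every library were treated as at the limit of detection, which covers counting error only, as do all counts of 0.

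The members and lists were chosen with earlier results of these data known. Named genes are the 10 members, up to 3 called genes per pathway list with the largest change in treated GFP-positive cells, the ligands, partners and regulators set with the lists, ISL1, and the 3 genes most correlated with TNFRSF10B, FAS and CASP8. Some genes and lists that this rule picks are not reported here. The genes HBB, CSF3R, FCGR3B, TNFSF15, TNFRSF1B, BID, LUM, TWIST1, TEK, SLC1A2, RHOBTB2 and FLACC1 were named besides and singled out after their values were seen. The same holds for the single markers of microglia and macrophages. Positions and lengths came from GENCODE 44 (25763 of 28278 symbols matched), promoters from RefSeq. Figures were drawn with matplotlib 3.10.9.

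The 2 sort fractions of a replicate number, within a treatment, deviated together from their group means and were considered pairs. Their r over 13368 genes was 0.45, 0.16 and 0.48 for controls and 0.20, 0.28 and 0.55 for treatment. The main fits left this pairing out. It entered only among the alternatives, with the replicate block of the fraction comparisons and of the interaction. Control and treated libraries with the same number were not considered pairs (r from -0.084 to 0.25). In the treatment comparisons the replicate block still joined them by that number, so it did not carry the sort pairing there. Alternatives were DESeq2 1.42.0, RLE scaling, no scaling beyond library size, a replicate block, a filter of 10 counts or more in every library, no filter, removal of the trend with GC content, both together, all 12 libraries in 1 fit, glmTreat against a fold of 2, and each library left out in turn; means without control GFP-negative replicate 3 were added after the data were seen. The fit was tested on simulated data. For treated against control GFP-positive cells, edgeR called 200 of 200 genes changed 4-fold, with 0 other calls among 15803 genes. For the interaction it called 200 of 200, with 10 other calls among 16084 genes. Only genes above a minimum mean count were changed, and every gene had the same dispersion. Neither paired fractions nor an outlying library were simulated, so recovery of members with few counts was not tested.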

Additional observations from a re-analysis of the deposited data

Results flagged for a closer look

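The response of EDA2R to treatment differed between GFP-positive and GFP-negative cells by the test of that difference itself, with a log2 difference of 1.62 (SE 0.31, edgeR adjusted p = 0.013). It went from 1.93 to 28.2 CPM in GFP-positive and from 4.63 to 22.2 CPM in GFP-negative cells.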

How the results depend on the processing

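Of 761 gene-level log2 fold changes under the alternatives, 707 kept their direction and their side of the thresholds, 12 lost and 22 gained a call, and 20 changed sign. All 20 belonged to values whose test did not pass. CFLAR in GFP-positive cells was 0.01 with treatment, but -0.016 with DESeq2 and with RLE scaling, -0.20 with the GC trend removed, alone and with the replicate block, -0.056 in the fit of all 12 libraries, and -0.048 to 0.076 when 1 library was left out. TNFRSF21 in GFP-positive cells was -0.0065 in the fit of all 12 libraries, and -0.069 to 0.20 with 1 library left out. In GFP-negative cells, leaving out 1 library gave -0.19 to 0.92 for CASP8, -2.60 to 0.45 for TNFRSF10C and -0.64 to 0.19 for FAS, in each case with an end set by control replicate 3. The interaction of TNFRSF10D was 0.15 with library size alone, 0.069 with at least 10 counts in every library and -0.24 to 0.12 with 1 library left out, and that of CASP8 was -0.13 to 1.02, with -0.13 without control GFP-negative replicate 3. The cause was not tested.

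The count of members called in GFP-positive cells with treatment was 3, was 2 with glmTreat, where TNFRSF10D (adjusted p = 0.13) lost its call, and was 3 to 4 with 1 library left out. In GFP-negative cells it was 4, fell to 2 with glmTreat, which asks for a change beyond 2-fold, and was 4 to 5 with 1 library left out; TNFRSF10A was called besides with DESeq2 (adjusted p = 0.031), with at least 10 counts in every library (0.047) and with the block (0.048). Between the fractions the count was 6 in controls (6 to 7 with 1 library left out) and 7 in treated cells (6 to 8), and 3 and 4 with at least 10 counts in every library, which leaves fewer genes to test. For the interaction, 0 became 1, always TNFRSF10B, with DESeq2, RLE scaling, library size alone, at least 10 counts in every library, the replicate block of the culture, the GC trend removed, the block with the GC trend removed, and without treated GFP-positive replicate 3 (0 to 1 over the libraries left out). With the replicate block the counts were 3, 5, 6, 7 and 1 in the order above, and it changed no other call than TNFRSF10A in GFP-negative cells and the interaction of TNFRSF10B. The counts of 3 and 5 come from a block over control and treated libraries, which were not considered pairs. Library size alone moved the median log2 fold change of all genes from 0.03 to 0.14 in treated GFP-positive cells, from 0.05 to 0.22 between the treated fractions and from -0.05 to 0.20 for the interaction; TNFRSF1A then passed 2-fold in GFP-positive cells (1.01), as it did with the GC trend removed (1.10, and 1.11 with the replicate block). DESeq2 gave TNFRSF10C no adjusted p between the control fractions. Depth limits TNFRSF10A, TNFRSF10C, FAS and CASP8 in GFP-positive cells, all under 20 counts per library.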
